A study of Mus musculus with 12 samples.

Results

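On the array used here, 52 probe sets that the platform lists under more than 1 gene symbol were raised by lipopolysaccharide (LPS), a surface glycolipid of Gram-negative bacteria, in cultured mouse macrophages. A probe set is a group of short oligonucleotides read as a single value. The value of a probe set with several symbols cannot by itself be assigned to any of the listed genes. These may share its target sequence, or only overlap or neighbour each other on the chromosome. The members were chosen on measured values: among the 932 probe sets with several symbols, their mean intensity was at least 100 and at least 2 times the untreated mean, either in cells that received LPS once or in cells pretreated with LPS. The table held 45037 probe sets apart from controls, of which 34945 had 1 symbol and 9160 had none. By the same rule 1679 probe sets with 1 symbol were chosen, 4.8% of them, against 5.58% of those with several symbols. Of the 52 members, 43 passed through the LPS once arrays and 24 through the pretreated arrays, 15 of them through both.

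The cells were bone marrow cells of C57Bl/6 mice grown in macrophage colony-stimulating factor. They were kept without LPS or with 100 ng/ml LPS for 18 h, given fresh medium, rested for 2 h, and then either left alone or given 100 ng/ml LPS. This gave untreated cells (neither dose), LPS once cells (the second dose only), pretreated cells (the first dose only) and restimulated cells (both doses), with 3 arrays each, lettered A, B and C and described in the labels as biological replicates. How long the last dose acted is not stated in the labels, and p-values measure the spread between these samples, which the labels do not tie to separate cultures or animals.

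LPS is sensed by Toll-like receptor 4, which switches on NF-kappaB and, through a separate branch of adaptors, interferon regulatory factors and the production of type I interferon. Interferon then acts back on the macrophage through STAT proteins and IRF9, which bind the interferon-stimulated response element (ISRE) in promoters of antiviral, GTPase and MHC class I genes. Macrophages that have met LPS respond less to a second dose at many inflammatory genes, a state known as endotoxin tolerance. Many interferon-induced families sit in clusters of near-identical gene copies, which a short probe cannot always tell apart.

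The members named 100 different symbols, and 39 members listed 2 genes, 10 listed 3, 2 listed 4 and 1 listed 9. In 16 members a gene was listed with a copy that RefSeq calls a pseudogene, in 6 the listed genes overlapped on the chromosome, in 29 they were separate genes, and 1 could not be classed. A listed gene was missing from the RefSeq table in 3 members, the unclassed one and 2 of the 16 with a pseudogene. Members are not all independent of each other: they fell into 41 groups with no symbol in common, and 10 of these groups held 21 members.

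Mean intensity over all probe sets lay between 310 and 317 on 11 arrays and was 247 on restimulated C, where the median over the members was 305, against 616 on restimulated A and 430 on restimulated B. The 7 macrophage markers examined, Csf1r, Adgre1, Cd68, Itgam, Fcgr1, Mertk and Lyz2, were all above 100 in at least 1 group mean, and their summed intensity ranged from 51867 to 53116 in untreated, 43213 to 45132 in LPS once, 53929 to 59414 in pretreated and 47114 to 55170 in restimulated arrays. No measured T cell (4 of 5 listed genes measured), B cell (4 of 5), NK cell (3 of 4), dendritic cell (5 of 5) or mast cell (4 of 4) marker reached a group mean of 100. Of the neutrophil list, 4 of 5 were measured and Ngp and Camp passed 100, with a summed level of 136 to 903 in untreated, 238 to 1224 in LPS once, 126 to 319 in pretreated and 168 to 373 in restimulated arrays. Of the 4 fibroblast genes, Col1a1, Col1a2 and Dcn passed 100, and their sum lay between 170 and 6639 in untreated, 244 and 5136 in LPS once, 214 and 3912 in pretreated and 173 and 3904 in restimulated arrays. Col1a2 read at most 127 on the C arrays and at least 1399 on all A and B arrays, so the fibroblast signal followed the replicate letter. The part of these cells in the values below was not tested, and in bulk RNA fewer cells of a type and less RNA per cell cannot be told apart.

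The genes of a shared probe set differ in how alike their promoter windows are. These are RefSeq windows of build GRCm38.p6 that run from 250 bases before to 50 bases after each annotated start. Of the 100 symbols, 68 had such a window, 84 windows in all. The ISRE core GAAANNGAAA, searched on both strands, matched in 24 of the 84 windows (28.6%), against 3.44% of all 32851 windows. It matched in 22 of the 68 genes, among them interferon alpha genes listed on 1 probe set. The interferon-gamma activated site TTCNNNGAA matched in 16 windows (19%, against 8.3% of all), and the NF-kappaB consensus in 8 (9.52%, against 8.46%). These windows are not independent, since gene copies and neighbouring starts of a gene are counted separately. Copies of interferon alpha, Sirpb1 and Tgtp genes and neighbouring Abracl starts are among the activated-site matches. Interferon alpha genes and Ifi203, Ifi205, Ifi211 and Mndal are among the ISRE matches. The shares were not tested. A match is a string of letters, not a bound site. The 8 stretches below, each the 150 bases before a start, are examples, shown because they let copies listed together (Tgtp1 with Tgtp2, Mndal with Ifi211, Trim30a with Trim30d) and members with large first responses (Isg15, Ifi203) be read side by side; other genes such as Ifi205 and several interferon alpha genes hold the core too and are not printed. Capitals mark the matched ISRE core (overlapping matches merged). All 8 lie on the minus strand and are printed 5′ to 3′ along the gene: Isg15 at chr4:156200819-156200968, Tgtp1 at chr11:48992247-48992396, Tgtp2 at chr11:49064213-49064362, Ifi203 at chr1:173942493-173942642, Mndal at chr1:173880188-173880337, Ifi211 at chr1:173913047-173913196, Trim30a at chr7:104465194-104465343 and Trim30d at chr7:104507850-104507999.
Isg15: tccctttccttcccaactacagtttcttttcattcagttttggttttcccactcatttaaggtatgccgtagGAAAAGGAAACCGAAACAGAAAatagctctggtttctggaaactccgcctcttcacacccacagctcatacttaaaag
Tgtp1: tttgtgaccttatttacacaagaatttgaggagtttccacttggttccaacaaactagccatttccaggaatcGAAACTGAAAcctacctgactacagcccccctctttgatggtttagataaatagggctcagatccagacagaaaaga
Tgtp2: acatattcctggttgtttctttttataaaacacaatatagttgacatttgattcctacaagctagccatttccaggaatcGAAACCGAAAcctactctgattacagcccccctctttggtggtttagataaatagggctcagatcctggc
Ifi203: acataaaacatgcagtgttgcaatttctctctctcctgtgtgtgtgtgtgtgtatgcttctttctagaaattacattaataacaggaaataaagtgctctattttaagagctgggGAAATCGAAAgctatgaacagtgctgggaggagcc
Mndal: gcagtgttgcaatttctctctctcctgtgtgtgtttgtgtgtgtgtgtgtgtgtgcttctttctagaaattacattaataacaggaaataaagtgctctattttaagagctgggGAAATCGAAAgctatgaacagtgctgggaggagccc
Ifi211: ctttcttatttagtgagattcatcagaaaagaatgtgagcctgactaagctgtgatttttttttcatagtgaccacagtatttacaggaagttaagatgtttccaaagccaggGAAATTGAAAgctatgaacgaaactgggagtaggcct
Trim30a: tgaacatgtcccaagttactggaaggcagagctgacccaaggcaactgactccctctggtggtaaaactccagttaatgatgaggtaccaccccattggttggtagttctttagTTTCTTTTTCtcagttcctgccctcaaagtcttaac
Trim30d: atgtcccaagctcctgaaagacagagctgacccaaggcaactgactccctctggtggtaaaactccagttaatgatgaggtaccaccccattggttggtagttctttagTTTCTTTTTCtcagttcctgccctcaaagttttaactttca

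Isg15 held 3 overlapping matches, the first starting 78 bases before the start. Tgtp1 and Tgtp2 held 1 each, at 77 and 70 bases before the start, in windows 67.7% identical. Ifi203, Mndal and Ifi211, members of the same cluster on chromosome 1, held 1 match at 35, 36 and 37 bases before their starts. Trim30a and Trim30d, whose windows were 90.8% identical, held it on the other strand at 36 and 41 bases before the start. Over the 57 distinct pairs of genes listed together whose windows could be aligned, 4 were at least 90% identical and 28 under 60%. Trex1 and Atrip, unrelated neighbours on 1 probe set, were 52% identical. Windows were aligned over their whole length, so copies with shifted annotated starts also scored low. Sirpb1a and Sirpb1b, whose windows hold the same stretch at different places, were 50.4% identical. A low share therefore does not tell unlike promoters from shifted starts. Rbm14 and Gm21992, which share 1 window, were scored on another window of Gm21992.

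Promoters of the Bcl2a1 copies with the highest window identity are shown because their probe set carries the 1 second response called among the members. Bcl2a1a (chr9:88956770-88956919, plus strand) and Bcl2a1d (chr9:88731851-88732000, minus strand) had windows 94.1% identical, with 6 mismatched and 12 gapped bases, and capitals in each stretch mark bases that differ from, or are missing in, the other: 8 in Bcl2a1a and 2 in Bcl2a1d. The window of the other copy on the probe set, Bcl2a1b, aligned to that of Bcl2a1a with 2 mismatched and 88 gapped bases. Those gaps lay at the window ends, because the annotated start of Bcl2a1b lies further along the shared sequence. Within the shared stretch, Bcl2a1a had fewer mismatches with Bcl2a1b than with Bcl2a1d. The Bcl2a1b window was 73.8% identical to that of Bcl2a1a and 70.6% to that of Bcl2a1d, shares lowered by this shift, and is not printed. None of the 3 windows held a match to the 3 motifs searched.
Bcl2a1a: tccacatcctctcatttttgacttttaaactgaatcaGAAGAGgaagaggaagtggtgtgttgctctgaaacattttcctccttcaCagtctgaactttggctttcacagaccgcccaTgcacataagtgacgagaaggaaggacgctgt
Bcl2a1d: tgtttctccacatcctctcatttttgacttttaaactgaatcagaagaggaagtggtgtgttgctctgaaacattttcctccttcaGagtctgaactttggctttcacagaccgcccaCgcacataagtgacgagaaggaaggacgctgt

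Values are linear intensities, and differences are given as log2(intensity + 16), a scale that understates changes of dim probe sets. Errors beside log2 differences are limma standard errors (SE) from a fit of all 12 arrays, with 3 arrays per group. The difference of LPS once from untreated cells (the first response) and that of pretreated from untreated cells (the pretreatment effect) are what chose the members, share the untreated arrays and are given as a description with no test. Over the 43 members chosen through LPS once, the first response had a median of 1.53 on the log2 scale and ranged from 0.39 to 5.38. Over the 24 chosen through pretreatment, the pretreatment effect had a median of 1.30 and ranged from 0.79 to 3.53. The highest group mean was LPS once in 39 of the 52 members, pretreated in 7, restimulated in 6 and untreated in 0.

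**Figure D1:**
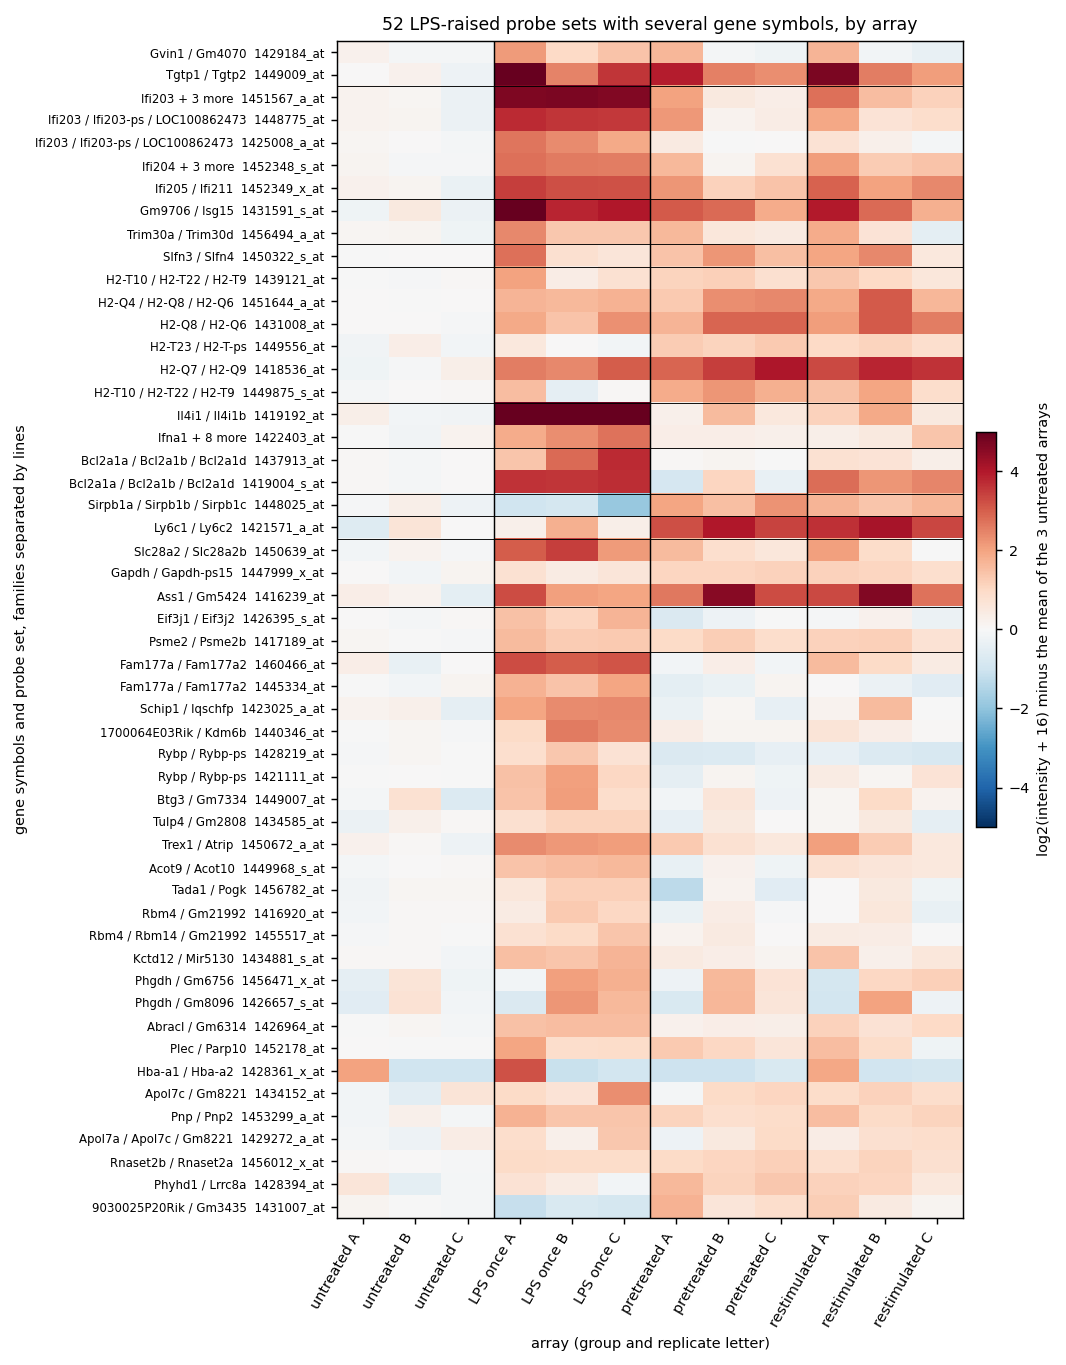
Each of the 52 members is a line and each of the 12 arrays a column, with colour giving log2(intensity + 16) minus the mean of the 3 untreated arrays (scale capped at 5 in either direction). LPS once is the highest group in 39 members, while Sirpb1, Ly6c, Ass1 and the MHC class I lines other than H2-T10/H2-T22/H2-T9 1439121_at have their highest mean in the pretreated or restimulated group.

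The second LPS response (restimulated minus pretreated) was tested for the 43 members chosen through LPS once, since neither of its groups entered that choice. Bcl2a1a/Bcl2a1b/Bcl2a1d (probe set 1419004_s_at) rose by 2.55 ± 0.39, with a limma adjusted p of 0.0165, and was the 1 member called higher. A call needed an adjusted p under 0.05 over all 45037 probe sets and a 2-fold difference; 0.415% of all probe sets were called higher and 0.708% lower. None of the 43 was called lower by limma, and at an unadjusted p under 0.05 there were 7 higher and 0 lower. At that limma threshold 1984 of all 45037 probe sets were higher and 5421 lower. Of the 1547 probe sets with 1 symbol chosen through LPS once, 522 were higher and 24 lower. The median second response of the 43 was 0.27, with 34 above 0 and 9 below, beside -0.00 over all probe sets and 0.33 over the 1547 probe sets with 1 symbol that passed the rule through LPS once, of which 10.7% were called higher. The members' median was 0.17 without restimulated A, 0.41 without restimulated C, the dimmest array, and 0.44 after quantile normalization. Abracl/Gm6314 (0.68 ± 0.10, adjusted p = 0.0132 by limma) and Acot9/Acot10 (0.76 ± 0.13, adjusted p = 0.0256 by limma) passed the p threshold with less than a 2-fold difference. The call of the Bcl2a1 probe set was lost without pretreated C (2.38 ± 0.44, adjusted p = 0.0851 in limma) and in a limma fit of only the 6 arrays compared (adjusted p = 0.239), where no probe set of the array was called.

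**Figure D2:**
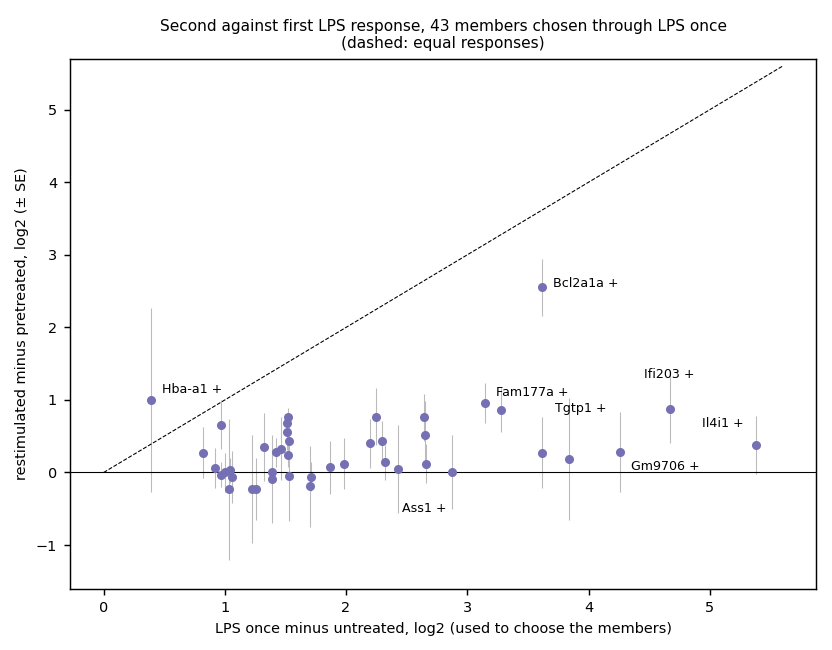
First LPS response (horizontal, the values that chose the members) against second LPS response (vertical, with bars of 1 SE), both in log2 units, for the 43 members chosen through LPS once; the dashed line marks equal responses. Bcl2a1 stands at 3.62 and 2.55, while Il4i1, Ifi203 and Isg15, with first responses of 4.26 or more, have second responses of 0.88 or less.

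Restimulated cells were compared with LPS once cells (below, the level after LPS) for the 24 members chosen through pretreatment, since the LPS once and restimulated arrays did not enter that choice. Sirpb1, Ly6c and 9030025P20Rik were the 3 members called higher in restimulated cells (1.47% of all probe sets were called higher). All 3 were among the 9 members that passed only through pretreatment. Il4i1, 2 Ifi203 probe sets and Slc28a2 were the 4 called lower (2.71% of all). These 4 were in the tested set through a single pretreated array. Without pretreated B, Il4i1 had a pretreated mean under 100. Without pretreated A, both Ifi203 sets and Slc28a2 had pretreated means under 2 times the untreated mean. All 4 were among the 15 members that also passed through LPS once. A high LPS once mean is part of that choice, so the split by direction is a description. At an unadjusted p under 0.05 in limma, 7 of the 24 were higher and 7 lower. Over all 45037 probe sets 4300 were higher and 6027 lower at that threshold. Of the 334 probe sets with 1 symbol chosen through pretreatment, 79 were higher and 55 lower. The median over the 24 was 0.12, with 12 above and 12 below 0, beside -0.01 over all probe sets and 0.03 over the 334 probe sets with 1 symbol chosen through pretreatment, of which 11.7% were called higher and 5.69% lower. The sign of the members' median turned when LPS once B (-0.03), LPS once C (-0.08) or restimulated B (-0.09) was left out. That median was 0.45 without LPS once A, 0.31 without restimulated C, 0.06 without restimulated A and 0.07 with a pseudocount of 64. Without LPS once A, 5 members were called higher, H2-T23/H2-T-ps and H2-T10/H2-T22/H2-T9 being added.

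**Figure D3:**
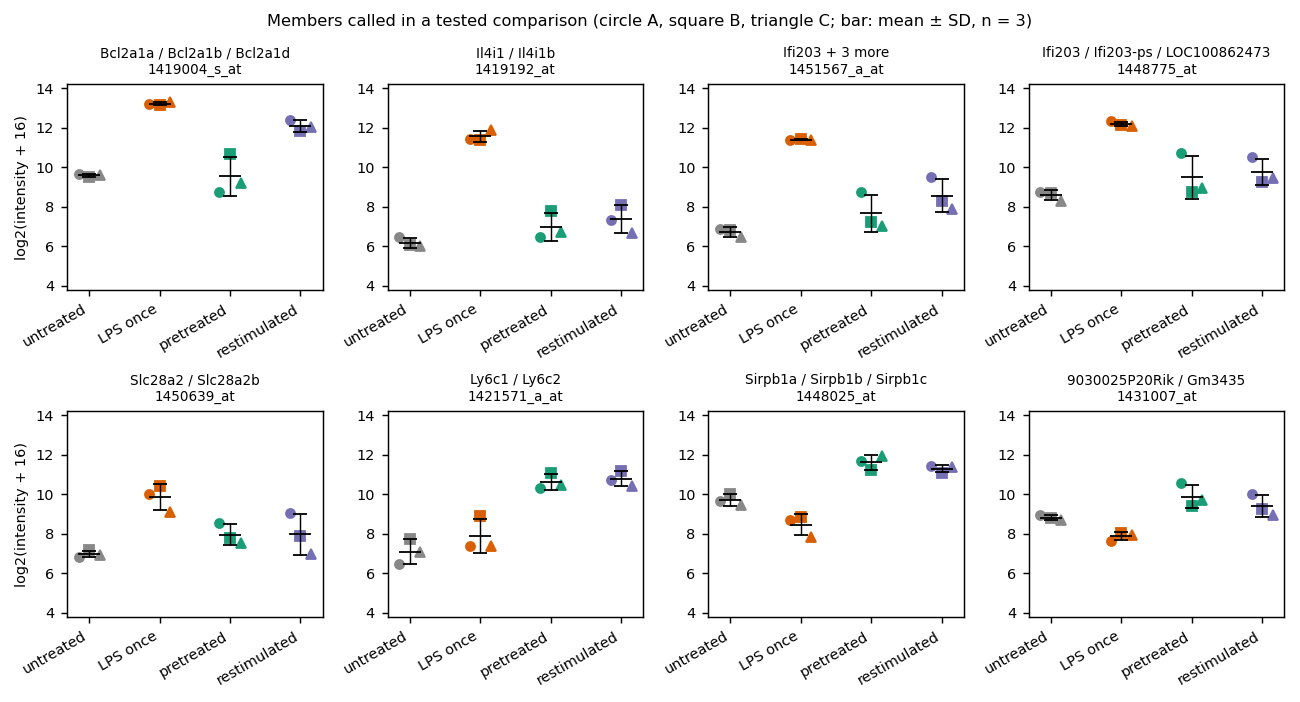
log2(intensity + 16) of the 8 members called in a tested comparison, in each of the 4 groups; circles, squares and triangles are arrays A, B and C, and bars give the mean ± SD of 3 arrays. Il4i1 and both Ifi203 probe sets peak in LPS once cells, whereas Sirpb1 and 9030025P20Rik have their highest mean in pretreated and Ly6c in restimulated cells.

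Among the guanylate-binding proteins and immunity-related GTPases, interferon-induced enzymes that attack the vacuoles of intracellular microbes, 2 probe sets were members. Tgtp1/Tgtp2 (1449009_at) read 69.5, 81.5 and 54.9 in untreated A, B and C, 3717, 454 and 982 after LPS once, 1274, 471 and 406 after pretreatment and 2167, 481 and 339 after restimulation. Its lowest LPS-treated array was above its highest untreated one, but A was the highest array of each LPS-treated group and the spread within groups was wide. The first response was 3.84 ± 0.84, the pretreatment effect 2.94 ± 0.84 and the second response 0.18 ± 0.84, which did not pass the limma test (adjusted p = 0.945). Its level after LPS was -0.73 ± 0.84 (adjusted p = 0.673 by limma). Gvin1/Gm4070 (1429184_at), a very large interferon-inducible GTPase, also had its A array highest in every group, with group means of 907 untreated, 2769 after LPS once, 1499 pretreated and 1485 restimulated. Of the other 18 probe sets with 1 symbol in this family, 13 passed the same rule, 3 were called lower and 0 higher in the level after LPS, and 0 were called in the second response.

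The Ifi200 (PYHIN) family, proteins that bind DNA and take part in its sensing, had 5 members. Ifi203 with its pseudogene (1451567_a_at) read 103, 99.4 and 71.7 in the untreated arrays, 2663, 2778 and 2652 after LPS once, 417, 135 and 117 after pretreatment and 709, 295 and 221 after restimulation. Every LPS once array was above every restimulated one, and the restimulated mean was 15.2% of the LPS once mean. The level after LPS fell by 2.85 ± 0.48 on the log2 scale (adjusted p = 0.00544 by limma). A companion probe set of Ifi203 (1448775_at) read 414, 404 and 298 untreated, 5151, 4579 and 4427 after LPS once, 1705, 416 and 485 pretreated and 1467, 605 and 698 restimulated. It fell by 2.44 ± 0.49 in the same comparison (adjusted p = 0.0127 by limma), again with no overlap between the groups, while A was the highest array among both the pretreated and the restimulated. The dim 1425008_a_at, a further Ifi203 set, had group means of 15.8 untreated, 147 after LPS once, 19.5 pretreated and 23.9 restimulated. These 3 probe sets share Ifi203, its pseudogene and LOC100862473, with LOC102641031 listed on 1451567_a_at as well, and are not separate evidence.

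Ifi205/Ifi211 (1452349_x_at) had group means of 893 untreated, 8758 after LPS once, 2832 pretreated and 5056 restimulated, and its restimulated mean was 57.7% of the LPS once mean. For the probe set of Ifi204, Ifi205, Ifi211 and Mndal (1452348_s_at), group means were 623 untreated, 3966 after LPS once, 1225 pretreated and 1968 restimulated, and that share was 49.6%. The second responses were 0.86 ± 0.30 and 0.76 ± 0.32, and neither passed the limma test (adjusted p = 0.191 and 0.282). In the family, 11 further probe sets had 1 symbol, 9 of them passed the rule, 3 were called lower and 0 higher in the level after LPS, and 0 were called in the second response.

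Isg15, a ubiquitin-like protein joined to other proteins during antiviral defence, shares 1431591_s_at with its copy Gm9706. It read 146, 250.3 and 139 in untreated arrays, 5965, 2596 and 2985 after LPS once, 1571, 1313 and 660.1 after pretreatment and 2888, 1334 and 638 after restimulation. The first response was 4.26 ± 0.55 and the pretreatment effect 2.58 ± 0.55, and the untreated arrays lay below all others. The second response was 0.28 ± 0.55 (adjusted p = 0.841 by limma). The level after LPS was -1.40 ± 0.55 (adjusted p = 0.159 by limma), and restimulated A overlapped the LPS once arrays. Without that array it fell by 1.94 ± 0.50 (adjusted p = 0.0459 by limma).

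Trim30a/Trim30d (1456494_a_at), TRIM proteins of which Trim30a is known to limit NF-kappaB activation, had group means of 457 untreated, 1613 after LPS once, 918 pretreated and 923 restimulated. Its level after LPS was -1.01 ± 0.56 (adjusted p = 0.332 by limma). Slfn3/Slfn4 (1450322_s_at), of the Schlafen growth regulators, read 229.9, 47.5 and 38.5 after LPS once against 19.7, 20.6 and 20.3 untreated, so A stood well above B and C. Its restimulated mean was 106% of the LPS once mean. The antiviral symbol patterns took in every symbol beginning with Trim or Mx, so not only antiviral effectors. Of their 183 further probe sets with 1 symbol, 42 passed the rule. In the second response 1 of the 183 was called higher and 2 lower, and in the level after LPS 6 higher and 6 lower. Among 14 further Schlafen probe sets, 7 passed the rule, 1 was called lower in the level after LPS and 0 were called in the second response.

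Within these 4 families the A array was the highest of its group in 9 of 10 members after LPS once, in 9 after pretreatment and in 9 after restimulation, against 6 in untreated cells. Over all 52 members the A array was highest in 22, 18, 29 and 19, in the same order of groups. The A arrays other than pretreated A also carried the haemoglobin signal described below. The part of the replicate letter in these values was not tested.

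MHC class I genes, which present peptides or act as ligands for NK and T cell receptors, had 6 members, and all 6 passed through the pretreated arrays. H2-Q7/H2-Q9 (1418536_at), which encode the Qa-2 antigen, read 93.6, 105 and 139 untreated, 732, 653 and 1013 after LPS once, 951, 1367 and 2053 after pretreatment and 1248, 1761 and 1558 after restimulation. The restimulated arrays lay above all LPS once arrays. Its level after LPS was 0.93 ± 0.27, which did not pass the limma test (adjusted p = 0.0636) and was called higher after quantile normalization (1.06 ± 0.29, adjusted p = 0.0391). H2-Q6/H2-Q8 (1431008_at) read 133, 137 and 129 untreated, 533, 387 and 713 after LPS once, 462, 1095 and 1105 pretreated and 618, 1239 and 857 restimulated. Its groups overlapped between LPS once and restimulated, with a level after LPS of 0.70 ± 0.36 (adjusted p = 0.292 by limma).

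H2-Q4/H2-Q6/H2-Q8 (1451644_a_at) had group means of 20.0 untreated, 98.9 after LPS once, 137 pretreated and 166 restimulated. H2-T23/H2-T-ps (1449556_at), the Qa-1 gene listed with H2-T-ps, had LPS once arrays that overlapped the untreated ones: it read 1921, 2729.9 and 1997 untreated, 3142, 2236 and 1988 after LPS once, 5337, 4795 and 5419 pretreated and 4429, 4759.8 and 3914 restimulated. Every restimulated array was above every LPS once array, and the level after LPS was 0.85 ± 0.18 (adjusted p = 0.0154 by limma), under 2-fold. H2-T10/H2-T22/H2-T9, ligands of gamma-delta T cell receptors, had 2 probe sets. The brighter (1449875_s_at) read 2651, 663 and 930.3 after LPS once and 2548, 3580.2 and 1657 after restimulation. Its level after LPS was 1.06 ± 0.44 (adjusted p = 0.19 by limma) and 1.63 ± 0.29 without LPS once A (adjusted p = 0.00879). The dimmer (1439121_at) had group means of 74.3 untreated, 196 after LPS once, 170.0 pretreated and 165 restimulated. The MHC list took in every symbol beginning with H2-, not class I alone. Of its 66 further probe sets with 1 symbol, 8 passed the rule and 0 were called by limma in either direction of either comparison.

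Il4i1/Il4i1b (1419192_at) had the largest first response of all members. Il4i1 is a secreted oxidase of aromatic amino acids that restrains T cells. It read 73.4, 51.1 and 48.4 untreated, 2759.6, 2660.3 and 3735 after LPS once, 71.9, 203 and 88.7 pretreated and 147, 254 and 85.5 restimulated, so its LPS once arrays stood far above all others. The first response was 5.38 ± 0.40, and the second was 0.38 ± 0.40 (adjusted p = 0.667 by limma). Restimulated cells held 5.31% of the LPS once mean, and the level after LPS fell by 4.20 ± 0.40 (adjusted p = 0.000315 by limma). The probe set of 9 interferon alpha genes (1422403_at), antiviral cytokines, was dim, with group means of 32.1 untreated, 226 after LPS once, 43.2 pretreated and 68.4 restimulated. Its second response was 0.43 ± 0.28 (adjusted p = 0.473 by limma). The chemokine and cytokine patterns took in 259 further probe sets with 1 symbol, 60 of which passed the rule; 9 were called higher and 0 lower in the second response, and 35 were called lower and 0 higher in the level after LPS.

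Bcl2a1a/Bcl2a1b/Bcl2a1d, copies of the anti-apoptotic BCL2 relative A1 that NF-kappaB induces, had 2 probe sets. The brighter (1419004_s_at) read 787, 712 and 777 untreated, 9383, 9181 and 10048 after LPS once, 415, 1598 and 578 pretreated and 5345, 3597 and 4243 restimulated. All restimulated arrays were above all pretreated ones, and all LPS once arrays above all restimulated ones. The pretreatment effect was -0.06 ± 0.39, so its level before the second dose was near that of untreated cells, while pretreated B was well above pretreated A and C. The restimulated mean was 46.1% of the LPS once mean. The dimmer (1437913_at) read 61.4, 197 and 380.4 after LPS once, 14.8, 16.4 and 13.6 pretreated and 34.5, 31.9 and 20.2 restimulated. Its second response was 0.52 ± 0.46 and did not pass the limma test (adjusted p = 0.599), although its restimulated arrays were all above its pretreated ones. The list of signalling inhibitors, kinases and phosphatases held 402 further probe sets with 1 symbol, of which 63 passed the rule, 22 were called higher and 5 lower in the second response, and 6 higher and 47 lower in the level after LPS.

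The Sirpb1 and Ly6c probe sets were higher in pretreated and restimulated cells than after LPS once. Sirpb1a/Sirpb1b/Sirpb1c (1448025_at), activating receptors of myeloid cells that pair with DAP12, read 793, 1019 and 686 untreated, 401, 442 and 212 after LPS once, 3294, 2345 and 3917 pretreated and 2726, 2157 and 2622 restimulated. All LPS once arrays lay below all untreated ones (first response -1.25 ± 0.28), and all restimulated arrays far above the LPS once arrays. Restimulated cells were 2.83 ± 0.28 higher than LPS once cells (adjusted p = 0.000398 by limma). Ly6c1/Ly6c2 (1421571_a_at), glycolipid-anchored antigens that mark inflammatory monocytes, read 71.9, 195 and 121 untreated, 148, 458 and 153 after LPS once, 1252, 2177 and 1386 pretreated and 1688, 2335 and 1360.2 restimulated. Its B array was the highest of every group, and the pretreated and restimulated arrays did not overlap those of the other groups. Ly6c was 2.90 ± 0.45 higher in restimulated than in LPS once cells (adjusted p = 0.00394 by limma), with no overlap between restimulated and LPS once. Ly6c also had the largest pretreatment effect of all members, 3.53 ± 0.45. The windows of Ly6c1 and Ly6c2 were 62.9% identical.

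Of 139 further probe sets of paired and lectin receptors with 1 symbol, 23 passed the rule, 1 was called higher and 0 lower in the second response, and 7 were called higher and 0 lower in the level after LPS. Of 27 further Ly6-list probe sets, 6 passed the rule, 4 were called higher and 3 lower in the level after LPS, and 0 were called in the second response. Another member, 9030025P20Rik/Gm3435 (1431007_at), read 476, 428 and 398 untreated, 184, 249 and 226 after LPS once, 1487, 661 and 812 pretreated and 1034, 599 and 481 restimulated. Like Sirpb1 it was lower after LPS once than in untreated cells (first response -0.94 ± 0.32), with no overlap. Its level after LPS was 1.55 ± 0.32 higher (adjusted p = 0.0141 by limma), and the call was lost in the fit of the 6 arrays compared (adjusted p = 0.0685). It dropped out of the members when pretreated A, its highest array, was left out of the rule.

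The metabolic and transport list gave 3 members. Ass1 with its pseudogene Gm5424 (1416239_at), the enzyme that rebuilds arginine from citrulline, read 109, 95.3 and 53.6 untreated, 936, 390.3 and 374 after LPS once, 597, 2312 and 943 pretreated and 957, 2413 and 631 restimulated. The B array was the highest of the pretreated and of the restimulated group, and restimulated C overlapped the LPS once arrays. Its pretreatment effect was 3.49 ± 0.61 and its level after LPS 1.11 ± 0.61 (adjusted p = 0.325 by limma). Slc28a2/Slc28a2b (1450639_at), nucleoside transporters that work with sodium, read 97.5, 128 and 106 untreated, 1022, 1354 and 537 after LPS once, 357, 207 and 169 pretreated and 511, 224 and 108 restimulated. The lowest LPS once array was only a little above the highest restimulated one. The level after LPS fell by 1.88 ± 0.51 (adjusted p = 0.0444 by limma), a call lost in 10 of 19 alternatives, with adjusted p from 0.0113 to 0.207 over them. Gapdh/Gapdh-ps15 (1447999_x_at), the glycolytic dehydrogenase with a pseudogene, had group means of 144 untreated, 227 after LPS once, 327 pretreated and 308 restimulated and a level after LPS of 0.42 ± 0.11 (adjusted p = 0.0422 by limma), under 2-fold. The 905 further probe sets of this list with 1 symbol had 70 by the rule, 3 called higher and 5 lower in the second response, and 17 higher and 28 lower in the level after LPS.

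From the translation and housekeeping list, Psme2/Psme2b (1417189_at), part of the interferon-induced activator of the proteasome, had group means of 2176 untreated, 5767 after LPS once, 4456 pretreated and 4488 restimulated, and Eif3j1/Eif3j2 (1426395_s_at), a translation initiation factor subunit, 206 untreated, 583 after LPS once, 163 pretreated and 200.0 restimulated. The level of Psme2 after LPS was -0.37 ± 0.14 (adjusted p = 0.152 by limma). Of the 1100 further probe sets of this list, 56 passed the rule, 9 were called lower and 0 higher in the second response, and 4 higher and 25 lower in the level after LPS.

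No family pattern took in the other 25 members. Fam177a/Fam177a2 (1460466_at) had the largest first response among them, with group means of 595 untreated, 5309 after LPS once, 603 pretreated and 1242 restimulated. Its second response was 0.96 ± 0.28 (adjusted p = 0.125 by limma) and was called higher after quantile normalization (1.11 ± 0.23, adjusted p = 0.0392). A dimmer probe set of the same genes (1445334_at) had group means of 105 untreated, 385 after LPS once, 89.9 pretreated and 85.7 restimulated. Schip1/Iqschfp (1423025_a_at), overlapping genes of which Schip1 binds schwannomin, had 34.1 untreated, 219 after LPS once, 27.0 pretreated and 66.9 restimulated. Kdm6b, which removes repressive methyl marks from histone H3, shares the dim 1440346_at with 1700064E03Rik, with group means of 22.6 untreated, 154 after LPS once, 29.1 pretreated and 33.5 restimulated.

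Trex1/Atrip (1450672_a_at) had group means of 804 untreated, 3733 after LPS once, 1506 pretreated and 2131 restimulated. Trex1 degrades DNA in the cytosol and Atrip is the partner of the ATR kinase. Acot9/Acot10 (1449968_s_at), acyl-CoA thioesterases of mitochondria, read 666, 994 and 729 pretreated and 1483, 1325 and 1234 restimulated, with no overlap. Abracl/Gm6314 (1426964_at), a small actin-related protein with a pseudogene, read 2076, 2259 and 2198 pretreated and 3994, 2976 and 3580.4 restimulated, again with no overlap. Pnp/Pnp2 (1453299_a_at), purine nucleoside phosphorylases, had group means of 1898 untreated, 5460.0 after LPS once, 3713 pretreated and 4425 restimulated. Rnaset2a/Rnaset2b (1456012_x_at), lysosomal ribonucleases, had group means of 2741 untreated, 5218 after LPS once, 5761 pretreated and 5239 restimulated.

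Phgdh, the entry enzyme of serine synthesis, had 2 members with pseudogenes, Phgdh/Gm6756 (1456471_x_at) and Phgdh/Gm8096 (1426657_s_at). In both, A was the lowest array of every group: the latter read 24.1, 81.1 and 37.4 untreated and 19.5, 258 and 167 after LPS once. Rybp, a Polycomb protein, had 2 members, and in the brighter (1428219_at) pretreated and restimulated cells were below untreated ones, with group means of 604 untreated, 1218 after LPS once, 395 pretreated and 388 restimulated. Plec/Parp10 (1452178_at), the linker protein plectin and an ADP-ribosyltransferase, had 302 untreated, 797 after LPS once, 622 pretreated and 581 restimulated. The first responses of the remaining ones, Btg3/Gm7334, Kctd12/Mir5130, Rbm4/Gm21992, Rbm4/Rbm14/Gm21992, the dimmer Rybp set, Tulp4/Gm2808, Tada1/Pogk, Phyhd1/Lrrc8a, Apol7c/Gm8221, Apol7a/Apol7c/Gm8221 and Hba-a1/Hba-a2, lay between 0.32 and 1.53 on the log2 scale.

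Restimulated cells held a median of 56.6% of the LPS once mean over all 52 members. Over the 43 chosen through LPS once the median was 52.4% and over the 24 chosen through pretreatment 103%. The same median was 45.4% over the 1679 probe sets with 1 symbol and 98.9% over all probe sets. The choice through a high LPS once mean enters this share, so it is a description.

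Other probe sets of the array carry a single symbol of the same genes and were set beside the members. Where not every listed gene has such a probe set, they cannot tell which gene gave a shared signal. For 24 members there were 47 such probe sets, and 22 of these 47 passed the rule themselves. They formed 53 pairs with a member. The pairs are not independent, since some probe sets, such as those of Ifi203 and Phgdh, enter several pairs. In 37 pairs the other probe set reached 100 in a group mean, and its first response lay within 1 log2 unit of the member's in 30 of them. For the level after LPS that held in 32 of 37, and for all 4 differences in 28. In the other 16 pairs the single-symbol probe set was under 100 in every group, and its first response lay within 1 log2 unit in 7.

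**Figure D4:**
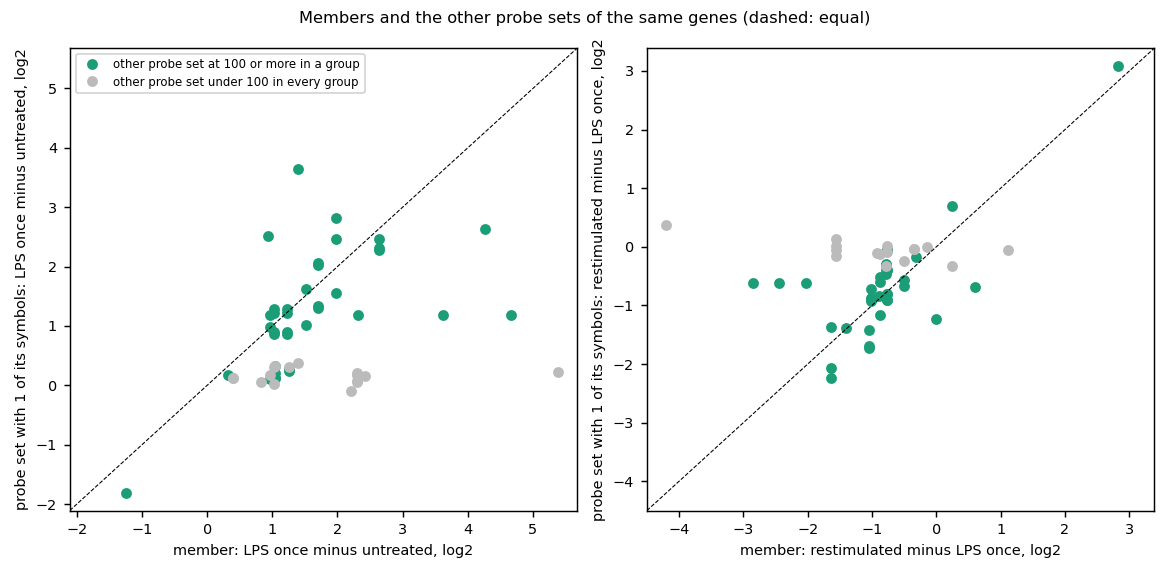
Each point is a pair of a member (horizontal) and another probe set with 1 of its symbols (vertical), in log2 units, for the first response (left) and the level after LPS (right); green points reached a group mean of 100, grey points did not, and the dashed line marks equality. In the left panel 30 of 37 green points lie within 1 unit of the line, against 7 of 16 grey ones.

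Slfn4 alone (1427102_at) read 24.1, 35.3 and 30.9 untreated, 1630.1, 295 and 346 after LPS once, 653, 1534 and 1014 pretreated and 988, 1298 and 571 restimulated. Like the shared probe set, it was highest on A after LPS once and on B after pretreatment and restimulation. Slfn3 alone (1421644_at) had group means from 10.3 to 20.3. Plec alone, on 2 bright probe sets (1419835_s_at and 1434610_at), had pretreatment effects of -0.92 and -0.87, against 0.98 for Plec/Parp10. No probe set of Parp10 alone was paired here. Atrip alone (1434321_at) had group means of 78.1 untreated, 72 after LPS once, 76.5 pretreated and 67.3 restimulated, against a first response of 2.20 for Trex1/Atrip. Tada1 alone (1424427_at) had a first response of 0.10 and Pogk alone (1447864_s_at) of 1.18, beside 0.97 for Tada1/Pogk. These 4 members were singled out after their values were seen.

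Rnaset2a alone (1431785_at) had group means of 54.8, 395, 87.8 and 170 in the order untreated, LPS once, pretreated and restimulated, so it was highest after LPS once, unlike the shared probe set. Sirpb1a alone (1458683_at) followed the shared Sirpb1 probe set, with 760 untreated, 207 after LPS once, 2662 pretreated and 1853 restimulated, and its level after LPS was 3.09 higher. Gm9706 alone (1453939_x_at), the Isg15 copy, had a first response of 2.64. A probe set of Ifi203 alone (1442828_at) had a first response of 1.19, against 4.67 for the brightest-changing shared one. Probe sets of Il4i1 alone (1437612_at) and Ass1 alone (1459937_at) stayed dim, with first responses of 0.23 and 0.16.

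The alpha globin genes Hba-a1/Hba-a2 (1428361_x_at), the oxygen carriers of red blood cells, were a member through 1 array. They read 639, 65.7 and 64.7 untreated, 1477, 60.1 and 69.5 after LPS once, 63.4, 62.4 and 79.2 pretreated and 614, 67.7 and 73.7 restimulated. The A arrays were high in 3 groups and not in the pretreated one. The same arrays stood out in a companion alpha globin probe set (1452757_s_at), with 497, 21.1 and 23.4 untreated and 969, 27.1 and 27.6 after LPS once, and in beta globin (1417184_s_at), with 342, 97.4 and 102 and 646, 112 and 134. Without LPS once A, untreated B or untreated C, Hba-a1/Hba-a2 no longer met the rule.

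**Figure D5:**
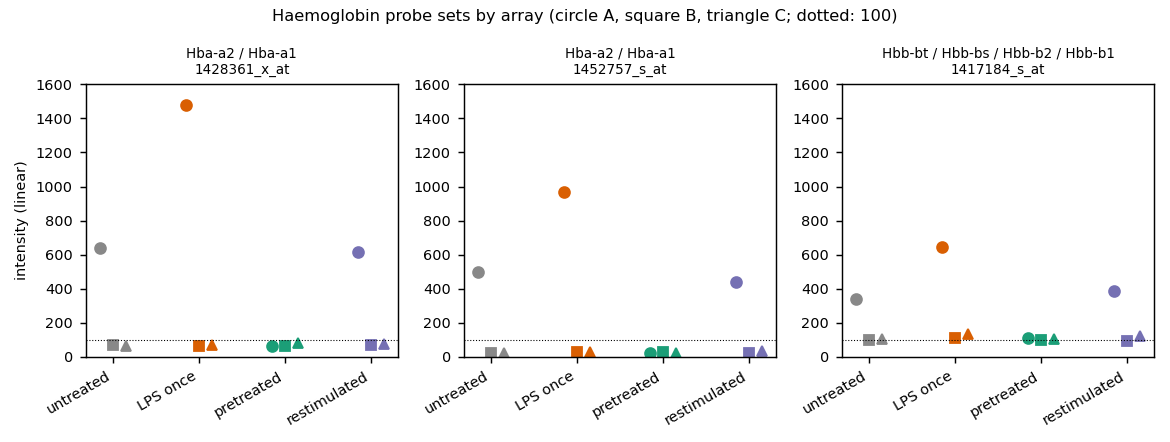
Linear intensity of 2 alpha globin probe sets and 1 beta globin probe set on each array (circle A, square B, triangle C); the dotted line marks an intensity of 100. On the A arrays the member 1428361_x_at reads 639 untreated, 1477 after LPS once and 614.0 restimulated, and at most 79.2 on all other arrays.

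Just inside the limits of the rule lay Rybp/Rybp-ps (1428219_at; 604 untreated, 1218 after LPS once, a ratio of 2.02), Rbm4/Gm21992 (1416920_at; 214 and 432, 2.02) and Tulp4/Gm2808 (1434585_at; 260 and 534, 2.05). Just outside lay a second Eif3j1/Eif3j2 probe set (1426394_at; 931 and 1856, 1.99), Tnfrsf22/Tnfrsf23 (1442590_at; 126 untreated and 245 pretreated, 1.94) and Rpl24/Gm9385 (1447653_x_at; 113 and 215 after LPS once, 1.91). Leaving out each of the 9 arrays that the rule uses gave 51 to 56 members, and 43 of the 52 were chosen whichever array was left out.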

How the data were processed

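RNA of 12 macrophage samples was hybridised to Affymetrix arrays. TriFast served for RNA isolation and Affymetrix's own procedure for labelling, per the labels' protocols. The authors deposited intensities, whose linear scale follows from their range. The summarisation, background correction and normalization behind them are not given in the sources used, and there are no counts, so the number of arrays limits the precision. The table held 45101 probe sets, of which 64 controls were left out.

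Intensities were transformed as log2(value + 16) with no further normalization. limma 3.58.1 in R 4.3.3 fitted the 4 group means to all 12 arrays and all 45037 probe sets (8 residual and 1.61 prior degrees of freedom), and p-values were adjusted by Benjamini-Hochberg over all of them. A call needed an adjusted p under 0.05 and a 2-fold difference. The fit was tested on simulated data. The second LPS response was tested for members chosen through LPS once and the level after LPS for members chosen through pretreatment. Contrasts that the rule used were not tested.

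Symbols came from the platform annotation, which can be old. Of 125 listed gene identifiers, 122 were in RefSeq's gene table (assembly GRCm38.p6), used for symbols, gene types and which genes overlap or neighbour each other. Promoter windows are RefSeq's on the same build.

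The members, families and marker lists were chosen with earlier results of these data known. Families were set by symbol patterns, which also took in other genes whose symbols begin alike. Values on every array are given for called members, for the 6 largest first responses and for the 6 largest pretreatment effects. Up to 4 members that differ from another probe set of the same genes are given by group means, differences or the arrays of some groups. Other members are mostly given by group means or ranges.

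The replicate letters pair the samples: deviations from the group means correlated at 0.2222 to 0.58658 for the 18 same-letter pairs of arrays and at -0.4261 to -0.04389 for the 36 others. The letter as a block was an alternative, with other pseudocounts, quantile normalization, a filter on dim probe sets, another variance prior, the 6 compared arrays alone and each array left out. Figures were drawn with matplotlib 3.10.9.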

Additional observations from a re-analysis of the deposited data

How the results depend on the processing

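With the replicate block, which follows the pairing of the letters, 1 member was called higher and 0 lower in the second response and 3 higher and 4 lower in the level after LPS, as without it, and it changed no other call. In the second response, quantile normalization gave 2 members higher (Fam177a/Fam177a2 added), the 6 compared arrays alone gave 0, and leaving out each array gave 0 to 1, the 0 being without pretreated C. No member was called lower in any of these. In the level after LPS, leaving out each array gave 3 to 5 higher, the 5 being without LPS once A, and 3 to 5 lower. In all these fits the tested members were those chosen on all arrays. The rule was not applied again, so these ranges leave out changes in which members were tested. Over the 19 alternatives, adjusted p in limma ranged from 0.000188 to 0.239 for Bcl2a1, 3.55e-05 to 0.0182 for Il4i1, 0.000479 to 0.0485 for Ly6c and 4.11e-05 to 0.0224 for Sirpb1, and no named member changed direction. Without single arrays the rule gave 51 to 56 members, and 9 of the 52 were lost without at least 1 array. Over all probe sets, the second response had 187 higher and 319 lower calls, but 306 and 252 after quantile normalization, 65 and 30 without pretreated C, 82 and 58 without pretreated A, 181 and 664 without restimulated B, 169 and 130 without restimulated C and 263 and 590 without pretreated B. With 6 arrays alone it had 0 and 0, and the level after LPS 261 and 511, against 661 and 1220. Without restimulated C, the dimmest array, the level after LPS had 1245 higher and 886 lower calls. Dim members such as the interferon alpha set limit what can be read, since log2(value + 16) shrinks their differences.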
